A study of Mus musculus with 8 samples.

Results

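The 9 genes described here are the fatty acid elongases Elovl1 to Elovl7 and the stearoyl-CoA desaturases Scd1 and Scd2. They were taken as all probe sets that the array annotation assigns to these genes, which gave 18 of the 22690 probe sets and 9 of the 12393 genes measured. The study cultured stromal-vascular (SV) cells of inguinal white fat from male C57BL/6J mice, differentiated them into adipocytes, and profiled them on Affymetrix mouse 430A_2 arrays. The 8 arrays fall into 4 groups of 2, which are sh-PRDM16 cells treated with rosiglitazone, untreated sh-PRDM16 cells, sh-scr cells treated with rosiglitazone, and untreated sh-scr cells. All 4 groups carry a short hairpin RNA: sh-PRDM16 is named for PRDM16, a transcriptional regulator of the brown fat programme, and sh-scr is the control hairpin. Rosiglitazone, an agonist of the nuclear receptor PPARγ, was given at 1 µM. The labels call the replicates biological but name no separate cultures or animals, and the p-values therefore describe the spread among these arrays, which may be technical. No probe set was assigned to Prdm16 alone in the annotation used, so its level was not checked and the knockdown rests on the labels.

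Elongases catalyse the condensation of a fatty acyl-CoA with malonyl-CoA, the rate-limiting step of the cycle that lengthens fatty acids in the endoplasmic reticulum. Each elongase prefers certain chains: ELOVL6 acts on palmitate, ELOVL1, ELOVL3 and ELOVL7 on longer saturated and monounsaturated chains, ELOVL2 and ELOVL5 on polyunsaturated chains, and ELOVL4 makes the very longest chains of retina and skin. Stearoyl-CoA desaturases turn saturated into monounsaturated acyl-CoA, which supplies the main fatty acids of stored fat. In mice, Elovl3 is known as a gene of cold-stimulated brown fat, Scd1 as an abundant lipogenic gene of fat and liver, and Scd2 as the form prominent in brain.

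RefSeq promoters (GRCm38.p6) were found for 6 of the 9 genes, namely Elovl1, Elovl2, Elovl4, Elovl5, Elovl6 and Elovl7. Those of Elovl4, Elovl6 and Elovl5 are shown because these genes differed in their order over the 4 groups, with Elovl4 high in both treated groups, Elovl6 low in untreated sh-PRDM16 cells, and Elovl5 high in untreated sh-scr cells. Each line gives the 250 bases before the annotated start, 5′ to 3′ on the gene's own strand, and capitals mark the motifs found. The promoter of Elovl4 lies at chr9:83806306-83806555 on the minus strand, that of Elovl6 at chr3:129532136-129532385 on the plus strand, and that of Elovl5 at chr9:77917115-77917364 on the plus strand.
Elovl4: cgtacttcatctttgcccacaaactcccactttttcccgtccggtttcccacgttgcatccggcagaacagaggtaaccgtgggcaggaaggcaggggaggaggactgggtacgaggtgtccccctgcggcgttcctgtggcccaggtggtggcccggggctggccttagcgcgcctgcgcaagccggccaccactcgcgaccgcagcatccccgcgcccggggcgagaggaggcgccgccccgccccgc
Elovl6: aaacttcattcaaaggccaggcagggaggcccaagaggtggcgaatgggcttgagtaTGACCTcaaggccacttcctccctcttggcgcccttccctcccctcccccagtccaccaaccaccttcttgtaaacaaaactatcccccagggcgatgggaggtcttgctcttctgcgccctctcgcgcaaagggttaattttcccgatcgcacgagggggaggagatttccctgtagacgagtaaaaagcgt
Elovl5: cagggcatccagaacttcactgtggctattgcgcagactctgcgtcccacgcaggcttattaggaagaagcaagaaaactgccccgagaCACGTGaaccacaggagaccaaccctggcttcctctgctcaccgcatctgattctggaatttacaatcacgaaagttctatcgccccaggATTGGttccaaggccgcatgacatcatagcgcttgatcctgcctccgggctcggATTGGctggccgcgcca
The motifs searched on both strands were a direct repeat of nuclear receptor sites as bound by PPAR with RXR (AGGTCANAGGTCA), its single site (AGGTCA, which the repeat contains), a sterol response element (TCACNCCAC), the CCAAT box of NF-Y (CCAAT) and an E-box (CACGTG). The single nuclear receptor site stood in the Elovl6 window at -193 on the reverse strand, and 14% of the 32851 mouse promoters of this length hold it. The Elovl5 window held CCAAT boxes at -71 and -17 on the reverse strand and an E-box at -161, motifs that 33.8% and 6.02% of all promoters hold. None of the motifs stood in the Elovl4 window, whose GC content was 69.6%, against 56.4% for Elovl6, 55.6% for Elovl5 and a median of 52.4% over all promoters. The direct repeat is held by 0.0335% and the sterol response element by 1.05% of all promoters, and neither was in the 3 windows shown.

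The deposited values were linear array intensities. The median intensity of an array ranged from 100.1 to 135.35, replicates correlated at r = 0.991 in each group, and the highest correlation between arrays of different groups was 0.984. Changes were tested with limma on log2(intensity + 16) over the 9294 genes that remained after the dimmest 25% by mean were dropped, with Benjamini-Hochberg adjustment at a threshold of 0.05. The scale compresses the change of dim genes, and the number of arrays limits the precision: the median standard error of a change was 0.15 on the log2 scale. Elovl2 and Elovl7 did not pass the filter on low values, so 7 of the 9 genes were tested. Adipocyte markers were bright on every array, with summed intensities of 8 markers of 68162.4 and 73502 in treated sh-PRDM16 cells, 53204.7 and 46401.2 in untreated sh-PRDM16 cells, 75426.5 and 79861.6 in treated sh-scr cells, and 72948.8 and 73550.3 in untreated sh-scr cells. In such bulk samples fewer adipocytes and less RNA per adipocyte cannot be told apart. Intensities of different probe sets are not comparable, so each gene is set only against itself.

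**Figure D1:**
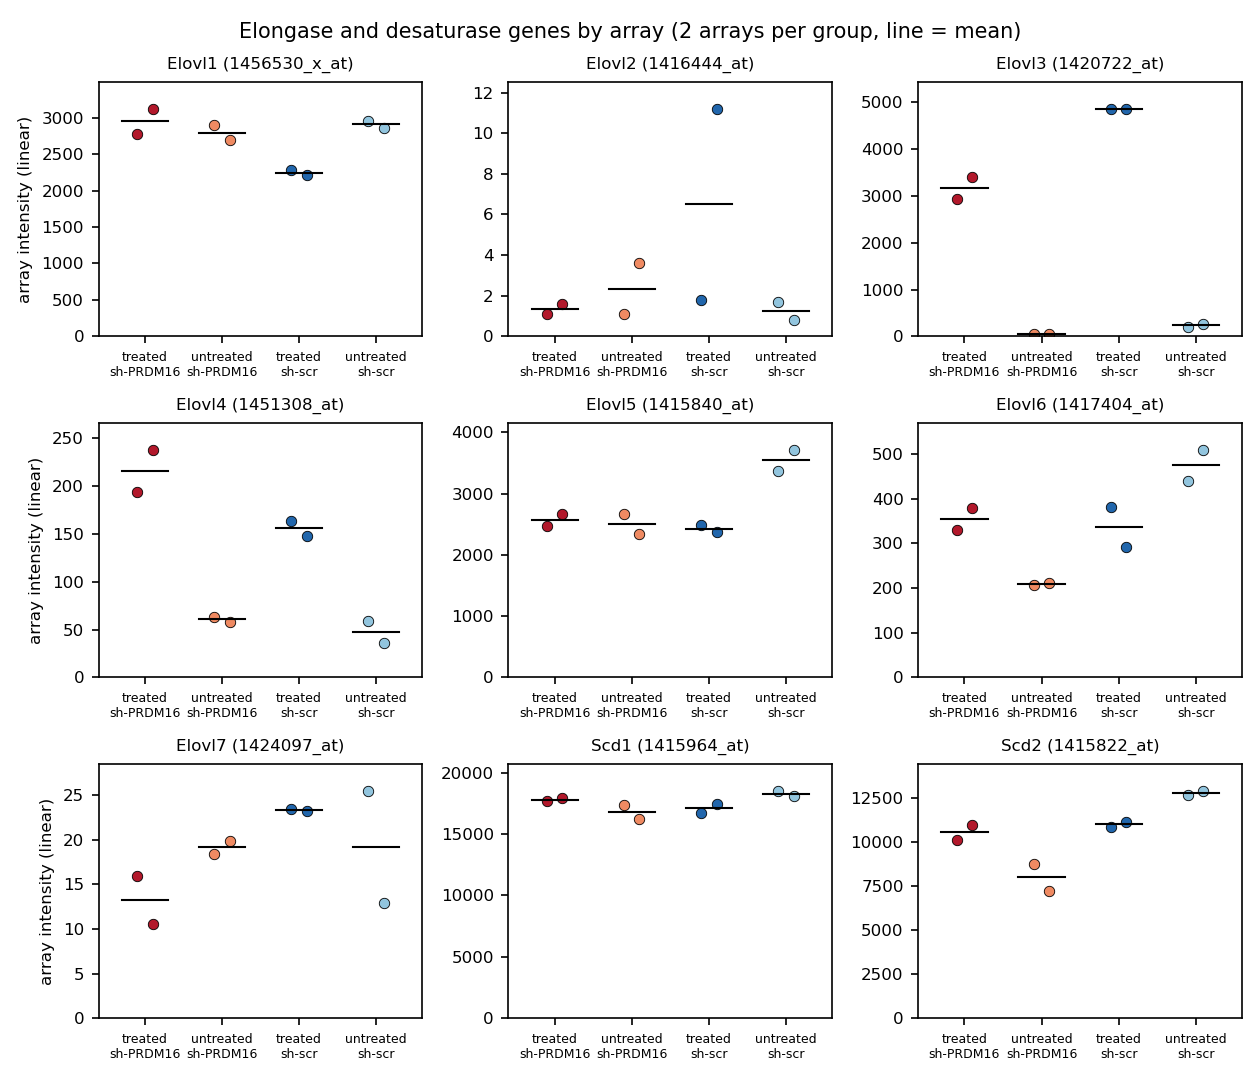
Array intensity (linear, vertical axes from 0) of the 9 genes, each by its brightest probe set, in treated and untreated sh-PRDM16 and sh-scr cells. Points are the 2 arrays of a group and lines their means. Elovl3 and Elovl4 are high in both rosiglitazone-treated groups, Elovl6 and Scd2 are lowest in untreated sh-PRDM16 cells, Elovl5 is highest in untreated sh-scr cells, and Scd1 differs little.

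Elovl3, the elongase of brown fat, varied most of the family, with group means that spanned 6.37 on the log2 scale. Its probe set (1420722_at) read 2924.7 and 3397.5 in treated sh-PRDM16 cells, 39 and 46.9 in untreated sh-PRDM16 cells, 4861.9 and 4855.4 in treated sh-scr cells, and 206.2 and 269.4 in untreated sh-scr cells. No 2 groups overlapped, which in each comparison also held for 50.5% to 77.2% of all genes tested, and treated sh-scr cells were the highest and untreated sh-PRDM16 cells the lowest. In sh-PRDM16 cells rosiglitazone raised Elovl3 73.6-fold in intensity (mean ± SD 3161.1 ± 334 in treated against 42.95 ± 5.59 in untreated cells, n = 2 arrays each). On the log2 scale this was 5.75 (SE 0.16, limma adjusted p = 1.18e-07), the top rise among the 9294 genes. In sh-scr cells the rise was 20.4-fold (4858.65 ± 4.6 in treated against 237.8 ± 44.7 in untreated cells), or log2 4.27 (SE 0.16, limma adjusted p = 9.11e-07), the rise of rank 5.

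The PRDM16 hairpin went with a lower Elovl3 level in both treatments. Without rosiglitazone the level in sh-PRDM16 cells was 0.181 times that in sh-scr cells, a log2 change of -2.10 (SE 0.16, limma adjusted p = 8.96e-05). With rosiglitazone it was 0.651 times, a log2 change of -0.62 (SE 0.16, limma adjusted p = 0.0316). The call with rosiglitazone was lost when any 1 of the 4 arrays compared was left out, at -0.51 (limma adjusted p = 0.137) without treated sh-PRDM16 replicate 1, -0.73 (0.0662) without replicate 2, and -0.62 without treated sh-scr replicate 1 (0.0895) or 2 (0.128). Of 6 brown or beige markers, all 6 were lower in sh-PRDM16 than in sh-scr cells with rosiglitazone, where 4.62% of all genes were lower. Their median log2 change there was -2.61, against -0.62 for Elovl3. Without rosiglitazone 4 were lower, where 15.5% of all genes were, and Ucp1 (-0.48, limma adjusted p = 0.186) and Dio2 (-0.07, 0.76) did not pass. The median of the 6 was then -1.11, against -2.10 for Elovl3. Ucp1 averaged 4 in untreated sh-PRDM16 and 12.9 in untreated sh-scr cells, both under the added 16, so its change was compressed. Cidea, among the lower markers, was dim as well, at 1.95 and 19.1. The summed intensity of the 6 markers was 926.3 and 1103.1 in treated sh-PRDM16 cells, 307.3 and 326 in untreated sh-PRDM16 cells, 4689.5 and 5244.4 in treated sh-scr cells, and 826.5 and 918.3 in untreated sh-scr cells. The sums of treated sh-PRDM16 and untreated sh-scr cells lay between 826.5 and 1103.1. Both treated sh-PRDM16 arrays were above both untreated sh-scr arrays in this sum by a small margin, and in Elovl3 by a wide one (means 3161.1 and 237.8). Cox7a1, the largest part of these sums (means 643.25 and 491.5), was higher in treated sh-PRDM16 cells, as were Ucp1 and Cidea. Cox8b (20.35 and 97.65), Dio2 (99.75 and 122.25) and Ppargc1a (127.45 and 129) were lower there. The part of brown or beige adipocytes in the Elovl3 values was not tested.

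The rosiglitazone response of Elovl3 was larger in sh-PRDM16 than in sh-scr cells by log2 1.48 (SE 0.23, 95% interval 0.97 to 1.98, limma adjusted p = 0.0331 for the difference of responses). Of all genes tested, 0.667% passed this test, and Elovl3 was the 1 of the 7 tested family members that did. The 6 brown or beige markers went the other way, with a median of -1.16. Of these markers 2 passed as lower, where 0.0646% of all genes did, and 0 as higher. The median of all genes in this test was 0.33 on the deposited scale and 0.02 on median-centred arrays, where the Elovl3 difference was 1.17 and no longer passed (limma adjusted p = 0.104). The call was also lost without treated sh-PRDM16 replicate 2 (1.37, adjusted p = 0.103), untreated sh-PRDM16 replicate 1 (1.38, 0.0575) or 2 (1.57, 0.134), treated sh-scr replicate 2 (1.48, 0.0699) or untreated sh-scr replicate 2 (1.30, 0.0671), each from limma.

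Elovl4, the elongase of very long chains in retina and skin, was higher with rosiglitazone in both sh-PRDM16 and sh-scr cells. Its brighter probe set (1451308_at) read 193.9 and 238.1 in treated sh-PRDM16 cells, 63.4 and 58.1 in untreated sh-PRDM16 cells, 164 and 147.5 in treated sh-scr cells, and 58.9 and 35.8 in untreated sh-scr cells. Treated arrays lay above all untreated arrays, and the untreated groups overlapped. Treated and untreated arrays did not overlap for 50.5% of all genes tested in sh-PRDM16 cells and 77.2% in sh-scr cells. In sh-PRDM16 cells Elovl4 rose 3.56-fold in intensity, by log2 1.59 (SE 0.19, limma adjusted p = 0.000565). In sh-scr cells it rose 3.29-fold, by log2 1.46 (SE 0.19, limma adjusted p = 0.00119). The responses differed by log2 0.13 (95% interval -0.46 to 0.72, limma adjusted p = 0.73), so a difference of up to 0.72 is within the interval.

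The hairpin comparison did not pass for Elovl4 without the drug (log2 0.30, SE 0.19, limma adjusted p = 0.311) or with it (0.43, SE 0.19, adjusted p = 0.14). Treated sh-PRDM16 arrays were the highest of the 4 groups on both Elovl4 probe sets. Between treated sh-PRDM16 and treated sh-scr cells, the arrays did not overlap for 64.7% of all genes tested. The other probe set (1424306_at) read 197 and 216.4 in treated sh-PRDM16 cells, 43.5 and 38.1 in untreated sh-PRDM16 cells, 132.8 and 161.7 in treated sh-scr cells, and 43.6 and 30.1 in untreated sh-scr cells. In a fit of all 15285 probe sets past the filter it rose with rosiglitazone by log2 1.97 in sh-PRDM16 cells (limma adjusted p = 0.000197) and 1.63 in sh-scr cells (0.000874), where 9.75% and 29.4% of all probe sets passed. Since Elovl4 is known from skin, epithelial markers were examined, of which 3 of 8 passed the filter. The 8 together summed to 999.2 and 938.6 in treated sh-PRDM16 cells, 355.7 and 306.6 in untreated sh-PRDM16 cells, 317.1 and 360 in treated sh-scr cells, and 196.4 and 282.1 in untreated sh-scr cells. Krt19, a keratin, made up most of this sum except in untreated sh-scr cells. Its means were 824 in treated sh-PRDM16 cells, 236.05 in untreated sh-PRDM16 cells, 217.5 in treated sh-scr cells and 117.95 in untreated sh-scr cells. In the same order of groups Krt5 averaged 48.95, 54.05, 35.25 and 39, and Krt18 36, 14.55, 24.8 and 28.45. Epcam and Cdh1 were under an intensity of 16 on every array, and Krt8, Krt14 and Mc5r did not pass the filter either. The part of epithelial RNA in the Elovl4 values was not tested.

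Elovl6, which extends palmitate to stearate, was lowest in untreated sh-PRDM16 cells. Its brighter probe set (1417404_at) read 329.2 and 378.5 in treated sh-PRDM16 cells, 207.7 and 211.3 in untreated sh-PRDM16 cells, 381.9 and 292.7 in treated sh-scr cells, and 439.5 and 509.3 in untreated sh-scr cells. The treated groups overlapped, and untreated sh-scr cells were the highest. Untreated sh-PRDM16 and untreated sh-scr arrays did not overlap for 57.8% of all genes tested. Without rosiglitazone Elovl6 was 0.442 times as high in sh-PRDM16 as in sh-scr cells, a fall of log2 -1.12 (SE 0.16, limma adjusted p = 0.00181). The other probe set (1417403_at) gave -1.13 (limma adjusted p = 0.00308), and the gene's call held with any 1 array left out. With rosiglitazone the difference was 0.07 (95% interval -0.28 to 0.43, limma adjusted p = 0.77).

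Rosiglitazone raised Elovl6 1.69-fold in sh-PRDM16 cells, by log2 0.71 (SE 0.16, limma adjusted p = 0.0182). The call was lost without treated sh-PRDM16 replicate 2 (0.61, limma adjusted p = 0.111) or either untreated sh-PRDM16 array (0.70 and 0.72, adjusted p = 0.0697 and 0.074), while its direction stayed. The other probe set gave 0.57 and did not pass (limma adjusted p = 0.0583). In sh-scr cells Elovl6 fell by log2 -0.48 (SE 0.16, limma adjusted p = 0.0413), where the median of all genes was -0.31. That fall was -0.19 on median-centred arrays (limma adjusted p = 0.303), and it was also lost without treated sh-scr replicate 2 (-0.30, 0.284), untreated sh-scr replicate 1 (-0.58, 0.0737) or 2 (-0.38, 0.218), or either untreated sh-PRDM16 array (-0.48, 0.0501). The 2 responses of Elovl6 differed by log2 1.19 (95% interval 0.68 to 1.7), just short of the threshold (limma adjusted p = 0.0536), and the difference passed without treated sh-scr replicate 1 (1.37, adjusted p = 0.0354).

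Elovl5, the elongase of polyunsaturated chains, was highest in untreated sh-scr cells and similar elsewhere. Its brighter probe set (1415840_at) read 2476.8 and 2674.6 in treated sh-PRDM16 cells, 2673.4 and 2343.3 in untreated sh-PRDM16 cells, 2492 and 2366.9 in treated sh-scr cells, and 3365.6 and 3714.8 in untreated sh-scr cells. The first 3 of these groups overlapped, and both untreated sh-scr arrays lay above all others. Untreated sh-scr arrays did not overlap with untreated sh-PRDM16 arrays for 57.8% of all genes tested. They did not overlap with treated sh-scr arrays for 77.2%. Without rosiglitazone Elovl5 was lower in sh-PRDM16 than in sh-scr cells by log2 -0.50 (SE 0.13, limma adjusted p = 0.0333), where the median of all genes was -0.16. In sh-scr cells rosiglitazone lowered it by log2 -0.54 (SE 0.13, limma adjusted p = 0.0156), where the median of all genes was -0.31. Relative to these medians the changes were -0.33 and -0.23, and both still passed on median-centred arrays. In treated against untreated sh-PRDM16 cells the change was 0.04 (limma adjusted p = 0.89), and with rosiglitazone sh-PRDM16 and sh-scr cells differed by 0.08 (95% interval -0.22 to 0.38, adjusted p = 0.689).

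Each Elovl5 call depended on single arrays. The sh-PRDM16 call was lost without untreated sh-PRDM16 replicate 2 (-0.40, limma adjusted p = 0.132) or untreated sh-scr replicate 1 (-0.57, 0.0846) or 2 (-0.42, 0.234), and the rosiglitazone call without treated sh-scr replicate 2 (-0.50, 0.0941) or untreated sh-scr replicate 1 (-0.61, 0.0511) or 2 (-0.47, 0.112). The other probe set (1437211_x_at) read 2334.7 and 2222.1 in treated sh-PRDM16 cells, 2375.2 and 2040.2 in untreated sh-PRDM16 cells, 2414.1 and 2159.7 in treated sh-scr cells, and 2830.9 and 3463.5 in untreated sh-scr cells. The highest group was the same, but on this probe set neither change passed, at -0.51 for the hairpin without rosiglitazone (limma adjusted p = 0.0668) and -0.45 for rosiglitazone in sh-scr cells (0.0549).

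Elovl1, which makes very long saturated chains for sphingolipids, changed little. Its brightest probe set (1456530_x_at) read 2781.3 and 3120.8 in treated sh-PRDM16 cells, 2892.9 and 2688.8 in untreated sh-PRDM16 cells, 2274.8 and 2216.9 in treated sh-scr cells, and 2955.7 and 2859 in untreated sh-scr cells. Treated sh-scr arrays were the lowest, and the other groups overlapped. The treated sh-scr arrays were also the lowest on the other 2 probe sets (1455994_x_at and 1425676_a_at). Treated and untreated sh-scr arrays did not overlap for 77.2% of all genes tested. Rosiglitazone lowered Elovl1 in sh-scr cells by log2 -0.37 (SE 0.13, limma adjusted p = 0.0465), which is -0.06 relative to the median of all genes in that comparison. On median-centred arrays the change was -0.08 (limma adjusted p = 0.506), and the call was lost without any 1 of the 4 sh-scr arrays (changes from -0.39 to -0.35, limma adjusted p from 0.122 to 0.196) and without either treated sh-PRDM16 array (-0.37, 0.0606). The other comparisons of Elovl1 did not pass, at log2 0.39 for sh-PRDM16 against sh-scr with rosiglitazone (limma adjusted p = 0.068) and -0.06 without it (0.797).

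Elovl2, an elongase of polyunsaturated chains best known from liver, and Elovl7 were dim. The Elovl2 probe set (1416444_at) read 1.1 and 1.6 in treated sh-PRDM16 cells, 1.1 and 3.6 in untreated sh-PRDM16 cells, 1.8 and 11.2 in treated sh-scr cells, and 1.7 and 0.8 in untreated sh-scr cells. The brighter Elovl7 probe set (1424097_at) read 16 and 10.6 in treated sh-PRDM16 cells, 18.4 and 19.9 in untreated sh-PRDM16 cells, 23.5 and 23.2 in treated sh-scr cells, and 25.5 and 12.9 in untreated sh-scr cells. The other Elovl7 probe set (1424098_at) read 7.7 and 20.2 in treated sh-PRDM16 cells, 10.9 and 1.8 in untreated sh-PRDM16 cells, 22.3 and 2.8 in treated sh-scr cells, and 2.4 and 2.4 in untreated sh-scr cells. The 2 Elovl7 probe sets thus ordered the groups differently. The filter left out genes up to an intensity of about 20.1, and the table gives no detection call, so neither gene can be called absent. In a fit of all probe sets the brighter Elovl7 probe set (1424097_at) was tested and did not pass in any comparison (limma adjusted p from 0.158 to 0.958).

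Scd1, the main desaturase of fat, was among the brightest signals of the whole array. Its brighter probe set (1415964_at) read 17682 and 17943 in treated sh-PRDM16 cells, 17378.2 and 16241.8 in untreated sh-PRDM16 cells, 16734.7 and 17463.3 in treated sh-scr cells, and 18522.6 and 18069.8 in untreated sh-scr cells. Every array placed it at or above percentile 99.9 of all probe sets, where the highest intensity of the table was 22736.2. Its group means spanned only 0.12 on the log2 scale, and none of its comparisons passed: sh-PRDM16 cells differed from sh-scr cells by -0.12 without rosiglitazone (limma adjusted p = 0.544) and 0.06 with it (0.758), and rosiglitazone changed it by 0.08 in sh-PRDM16 cells (0.719) and -0.10 in sh-scr cells (0.533).

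The dimmer Scd1 probe set (1415965_at) gave another picture. It read 2617.6 and 3012.3 in treated sh-PRDM16 cells, 1643.5 and 1381 in untreated sh-PRDM16 cells, 3774.7 and 3888.7 in treated sh-scr cells, and 3234.3 and 3522.3 in untreated sh-scr cells. Untreated sh-PRDM16 cells were the lowest. In the fit of all probe sets it was 0.448 times as high in sh-PRDM16 as in sh-scr cells without rosiglitazone (log2 -1.16, SE 0.15, limma adjusted p = 0.00183), and rosiglitazone raised it 1.86-fold in sh-PRDM16 cells (log2 0.89, SE 0.15, adjusted p = 0.00603). Of all probe sets 12.2% passed in the first of these comparisons. Its other changes did not pass, with -0.45 for sh-PRDM16 against sh-scr cells with rosiglitazone (limma adjusted p = 0.0845) and 0.18 for rosiglitazone in sh-scr cells (0.35). The 2 probe sets of Scd1 therefore disagree on the size of its change, and whether the brighter one is near the top of the measurable range was not tested.

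Scd2 was lowest in untreated sh-PRDM16 cells on all 3 of its probe sets. The brightest (1415822_at) read 10125 and 10969.7 in treated sh-PRDM16 cells, 8757.3 and 7226.7 in untreated sh-PRDM16 cells, 10839.8 and 11121.1 in treated sh-scr cells, and 12636 and 12888.8 in untreated sh-scr cells. Only the treated groups overlapped. In the other comparisons the arrays did not overlap for 50.5% to 77.2% of all genes tested. Without rosiglitazone Scd2 was 0.626 times as high in sh-PRDM16 as in sh-scr cells, a log2 change of -0.68 (SE 0.14, limma adjusted p = 0.00971). The dimmer probe sets (1415823_at and 1415824_at) gave -0.83 and -0.77 (limma adjusted p = 0.0132 and 0.0243 in the fit of all probe sets). The gene's call was lost without untreated sh-PRDM16 replicate 2 (-0.54, limma adjusted p = 0.0504) or untreated sh-scr replicate 2 (-0.67, 0.0699).

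Rosiglitazone changed Scd2 by log2 0.41 in sh-PRDM16 cells (95% interval 0.10 to 0.71, limma adjusted p = 0.0863) and -0.22 in sh-scr cells (95% interval -0.53 to 0.09, adjusted p = 0.226), neither past the threshold. The first passed on median-centred arrays (0.39, limma adjusted p = 0.0138) and when untreated sh-PRDM16 replicate 1 was left out (0.54, adjusted p = 0.0404). With rosiglitazone, sh-PRDM16 and sh-scr cells differed by -0.06 (95% interval -0.37 to 0.25, limma adjusted p = 0.79).

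**Figure D2:**
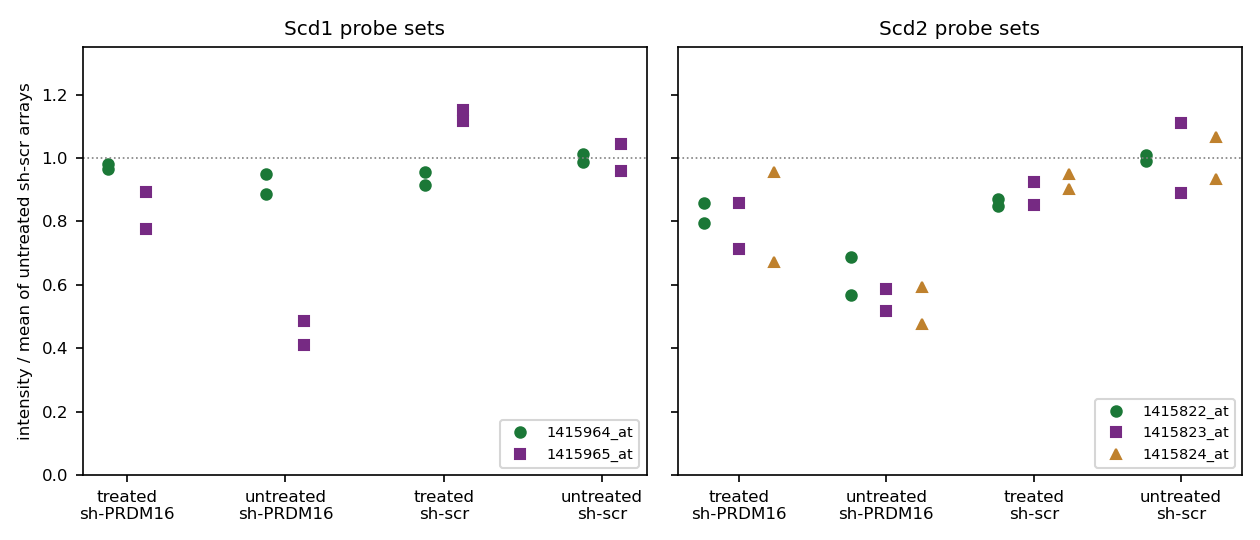
Intensity of each Scd1 and Scd2 probe set divided by its mean in untreated sh-scr cells, by group, with the 2 arrays of a group as points. The brighter Scd1 probe set stays between 0.888 and 1.01, while the dimmer one and all 3 Scd2 probe sets are lowest in untreated sh-PRDM16 cells, at 0.409 to 0.686.

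Counted over the 7 genes tested, each by its brightest probe set, the family changed differently in each comparison. Rosiglitazone raised 3 in sh-PRDM16 cells (Elovl3, Elovl4, Elovl6), where 13.4% of all genes passed and 10.1% rose, and the median change was 0.41 against 0 for all genes. The dimmer Scd1 probe set, not used in the count, also rose (0.89, limma adjusted p = 0.00603), where 7.49% of all probe sets rose. On median-centred arrays Scd2 rose as well, where 24.4% of all genes passed, 14.5% up and 9.87% down. In sh-scr cells the drug raised 2 (Elovl3, Elovl4) and lowered 3 (Elovl1, Elovl5, Elovl6), where 37.4% of all genes passed, 5.2% up and 32.2% down, and the median change was -0.22 against -0.31 for all genes. On median-centred arrays 26.1% of all genes passed there, 14.2% up and 11.9% down, and of the 3 falls that of Elovl5 alone passed.

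Between sh-PRDM16 and sh-scr cells without rosiglitazone, 4 members were lower (Elovl3, Elovl5, Elovl6, Scd2), where 17.5% of all genes passed and 15.5% were lower, and the median was -0.50 against -0.16 for all genes. Scd1 was counted by its brighter probe set. Its dimmer one was lower too (-1.16, limma adjusted p = 0.00183), where 10.9% of all probe sets were. On median-centred arrays the same 4 passed, where 21.4% of all genes did, 8.8% higher and 12.6% lower. With rosiglitazone Elovl3 alone was lower, where 15.2% of all genes passed and 4.62% were lower. On median-centred arrays Elovl3 was again the 1 call, where 24.6% of all genes passed, 12.3% higher and 12.3% lower. Of the differences between the responses, those of Elovl1 (0.45), Elovl5 (0.58) and Scd2 (0.62) did not pass (limma adjusted p = 0.178, 0.146 and 0.137). Each rosiglitazone comparison shares its arrays with a hairpin comparison, so their counts are not independent.

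**Figure D3:**
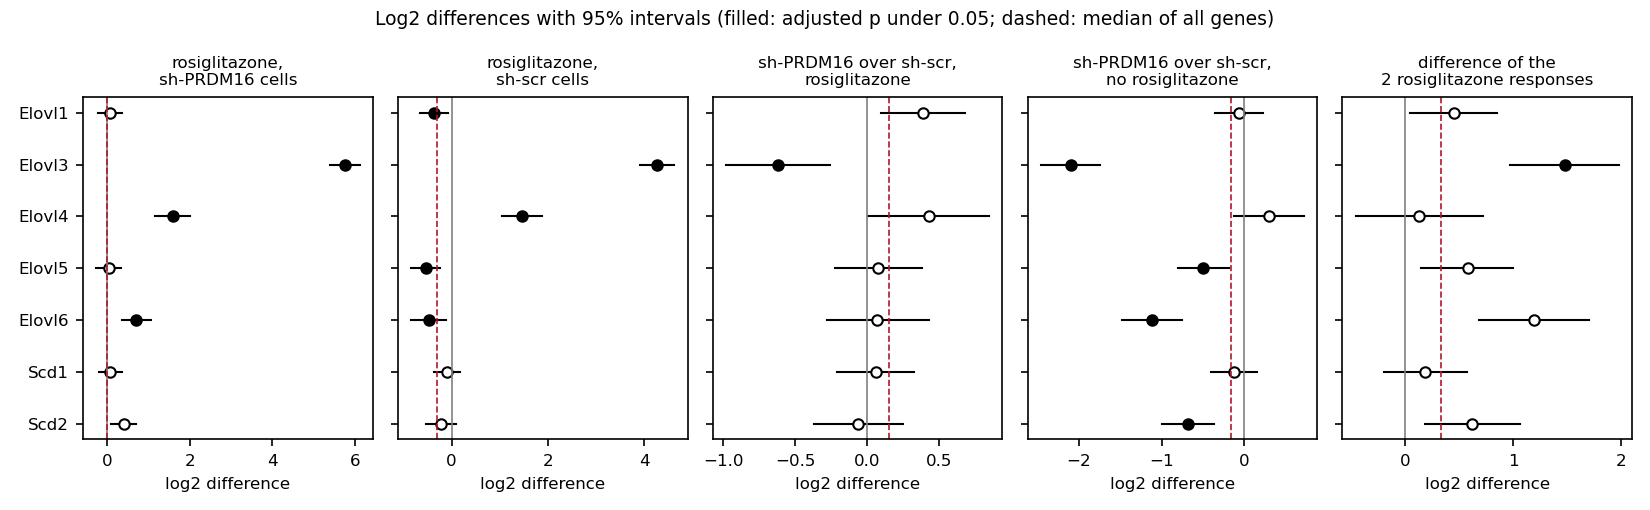
Log2 difference (horizontal axes, scaled per panel) of the 7 tested genes, treated over untreated, sh-PRDM16 over sh-scr, and the difference of the 2 rosiglitazone responses. Bars are 95% intervals from limma, filled points passed the test, and the dashed line is the median of all genes. Elovl3 rises by 5.75 and 4.27 with rosiglitazone and Elovl4 by 1.59 and 1.46, while Elovl6 and Scd2 lie at -1.12 and -0.68 for sh-PRDM16 against sh-scr cells without the drug.

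The adipocyte markers moved in the same comparison as these 4 lower genes. Of 8 adipocyte markers tested, 6 were lower in sh-PRDM16 than in sh-scr cells without rosiglitazone, where 15.5% of all genes were lower, with a median log2 change of -1.03. In sh-PRDM16 cells 4 of the 8 rose with rosiglitazone, where 10.1% of all genes rose. Macrophage and leukocyte markers were lower too: their sum over 7 genes was 787.5 and 820 in treated sh-PRDM16 cells, 1025.8 and 936.8 in untreated sh-PRDM16 cells, 2924 and 2869.2 in treated sh-scr cells, and 4519.9 and 4930.4 in untreated sh-scr cells. Of these markers Itgam was under 16 on every array, and 4 of the 5 tested were lower in sh-PRDM16 than in sh-scr cells both with the drug, where 4.62% of all genes were lower, and without it, where 15.5% were. The part of cell composition in the changes of Elovl3, Elovl5, Elovl6 and Scd2 was not tested.

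The genes whose values ran most alike over the 8 arrays were taken for the 3 members whose group means spanned at least 1 on the log2 scale, out of 1246 genes that varied as much. As the arrays come in 4 groups of 2, r follows the group means. Elovl3 ran closest to Acaa1b, a peroxisomal thiolase with a close paralog (r = 0.999), Ephx2, the soluble epoxide hydrolase (0.998), and Retsat, a retinol saturase (0.996). Acaa1b read 6087.4 and 6648 in treated sh-PRDM16 cells, 102.6 and 118.8 in untreated sh-PRDM16 cells, 10710 and 10527.7 in treated sh-scr cells, and 396.1 and 521.1 in untreated sh-scr cells, the same order of groups as Elovl3. Elovl4 ran closest to Irs2, an adaptor of the insulin receptor (r = 0.978), Serpinb9g (0.975) and Nepn (0.974). Elovl6 ran less closely with any gene, the nearest being Grina (r = 0.943), Hagh, a glyoxalase (0.937), and the mitochondrial carrier Slc25a35 (0.936).

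Counts of the pathway lists are set against the share of all genes that passed in the same direction, with the counts on median-centred arrays where these differ most. The enzymes that complete the elongation cycle after the elongase gave 6 listed reductase and dehydratase genes, all tested. Without rosiglitazone 3 of the 6 were lower in sh-PRDM16 than in sh-scr cells, against 15.5% of all genes, namely Tecr, the enoyl-CoA reductase (-0.91, limma adjusted p = 0.00177), the dehydratase Hacd2 (-0.80, 0.00489) and Hsd17b12, the ketoacyl-CoA reductase (-0.53, 0.0251). With rosiglitazone the 6 differences lay between -0.40 and 0.37, with limma adjusted p from 0.0785 up. On median-centred arrays, however, Hacd2 (-0.53, limma adjusted p = 0.00751) and Tecr (-0.45, 0.00946) passed as lower, where 12.3% of all genes were lower.

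Rosiglitazone raised Hsd17b12 by log2 1.14 in sh-PRDM16 cells and 0.54 in sh-scr cells (limma adjusted p = 0.000572 and 0.0158), where 10.1% and 5.2% of all genes rose. The dehydratase Hacd3 fell by 0.53 in sh-scr cells (limma adjusted p = 0.0209), where 32.2% of all genes fell with a median of -0.31. On median-centred arrays Hacd3 was at -0.24 and did not pass (limma adjusted p = 0.0584). There 3 of the 6 rose in each of sh-PRDM16 and sh-scr cells, where 14.5% and 14.2% of all genes rose.

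Of 13 listed other desaturases and electron donors 9 were tested. Without the drug 4 were lower in sh-PRDM16 than in sh-scr cells, against 15.5% of all genes: the electron donors Cyb5b (-0.94) and Cyb5a (-0.71) and the polyunsaturated fatty acid desaturases Fads1 (-0.63) and Fads2 (-0.55). With the drug Cyb5b was lower (-0.55), where 4.62% of all genes were. In sh-PRDM16 cells rosiglitazone raised Cyb5b (0.78), where 10.1% of all genes rose. On median-centred arrays 3 of the 9 rose and 1 fell there, where 14.5% of all genes rose and 9.87% fell.

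In sh-scr cells rosiglitazone lowered 6 of the 9, where 32.2% of all genes fell, and the 4 with the largest changes were Cyb5r1 (-0.70), Fads1 (-0.67), Degs1 (-0.53) and Cyb5r3 (-0.48). On median-centred arrays 2 fell and 2 rose there, where 11.9% of all genes fell and 14.2% rose. Degs1 (-0.24, limma adjusted p = 0.0806) and Cyb5r3 (-0.19, 0.0951) no longer passed on that scale. Scd3, the next stearoyl-CoA desaturase, averaged 42.15 in treated sh-PRDM16 cells, 20.45 in untreated sh-PRDM16 cells, 66.8 in treated sh-scr cells and 53.2 in untreated sh-scr cells. It passed no test, and its lowest limma adjusted p was 0.0554, for sh-PRDM16 against sh-scr cells without rosiglitazone.

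Genes of fatty acid synthesis, which makes the palmitate that Elovl6 extends, and of its NADPH supply were mostly lower in untreated sh-PRDM16 cells. Of 9 tested (11 listed), 8 were lower in sh-PRDM16 than in sh-scr cells without rosiglitazone, where 15.5% of all genes were lower, with a list median of -1.20 against -0.16 for all genes. The largest changes were those of Thrsp, a lipogenic regulator (-2.77), Acss2, an acetyl-CoA synthetase (-1.90), Acacb, an acetyl-CoA carboxylase (-1.67), and Fasn, the fatty acid synthase (-1.37). With the drug 4 were lower, where 4.62% of all genes were, namely Thrsp (-2.12), Acss2 (-1.48), Acacb (-1.20) and Acly (-0.62). On median-centred arrays 7 were lower with the drug, where 12.3% of all genes were, with Fasn at -0.54 (limma adjusted p = 0.0052).

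Rosiglitazone raised 5 of these genes in sh-PRDM16 cells, where 10.1% of all genes rose, led by Acacb (3.03), Me1 (1.28), Acss2 (0.84) and Acly (0.62). Acacb averaged 3.25 in untreated sh-PRDM16 cells, under the added 16, so its changes against that group were compressed. In sh-scr cells the drug raised Acacb (2.57) and Me1 (0.43), where 5.2% of all genes rose, and lowered Fasn (-0.63), where 32.2% fell. On median-centred arrays 5 rose in sh-scr cells, against 14.2% of all genes, and Fasn still fell, against 11.9%.

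Among acyl-CoA synthetases, which activate fatty acids, 6 of 9 listed were tested. Rosiglitazone raised Slc27a1, a fatty acid transporter with synthetase activity, and Slc27a4 in sh-PRDM16 cells (log2 2.43 and 0.63), where 10.1% of all genes rose. In sh-scr cells Slc27a1 rose by 1.71, where 5.2% of all genes rose, and Acsl6 fell by 0.68, where 32.2% fell. The fall of Acsl6 did not pass on median-centred arrays, where Slc27a4 rose instead, against 14.2% of all genes. Between sh-PRDM16 and sh-scr cells Slc27a1 was lower without the drug (-1.48), where 15.5% of all genes were lower, and with it (-0.77), where 4.62% were. With the drug Acsl4 was higher (0.61), where 10.6% of all genes were higher.

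Of the enzymes of ceramide synthesis, which use very long chains, 5 of 9 listed were tested. The ceramide synthase Cers4 rose with rosiglitazone in sh-PRDM16 cells (1.15), as did Sptlc2 (0.53), against 10.1% of all genes, and Cers4 rose in sh-scr cells too (0.50), against 5.2%. In sh-scr cells Cers5 and Sptlc1 fell (-0.57 and -0.45), against 32.2% of all genes. On median-centred arrays Sptlc1 did not pass as lower there and Sptlc2 rose, against 14.2% of all genes. Cers4 was lower in sh-PRDM16 than in sh-scr cells without the drug (-1.11), against 15.5% of all genes. With the drug Sptlc1 and Sptlc2 were higher (0.47 and 0.49), against 10.6% of all genes. On median-centred arrays Cers5 was also higher and Cers4 lower, against 12.3% of all genes in each direction.

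Among 10 tested regulators of lipid synthesis (13 listed), 5 were lower in sh-PRDM16 than in sh-scr cells without rosiglitazone, where 15.5% of all genes were lower. The 4 with the largest changes were Mlxipl, which encodes ChREBP (-1.58), Ppara (-1.04), Pparg, the receptor of rosiglitazone (-0.99), and Srebf1 (-0.79). With the drug Ppara was lower (-1.34), where 4.62% of all genes were. On median-centred arrays 3 regulators were lower with the drug, where 12.3% of all genes were. Rosiglitazone raised Ppara (1.75), Nr1h3, which encodes LXRα (1.02), and Srebf1 (0.80) in sh-PRDM16 cells, where 10.1% of all genes rose. Ppara averaged 13.1 in untreated sh-PRDM16 cells, under the added 16, so its changes against that group were compressed. In sh-scr cells Ppara rose by 2.05, where 5.2% of all genes rose. Rxra (-0.80) and Scap (-0.52) fell there, where 32.2% of all genes fell. Scap did not pass on median-centred arrays (-0.23, limma adjusted p = 0.119).

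**Figure D4:**
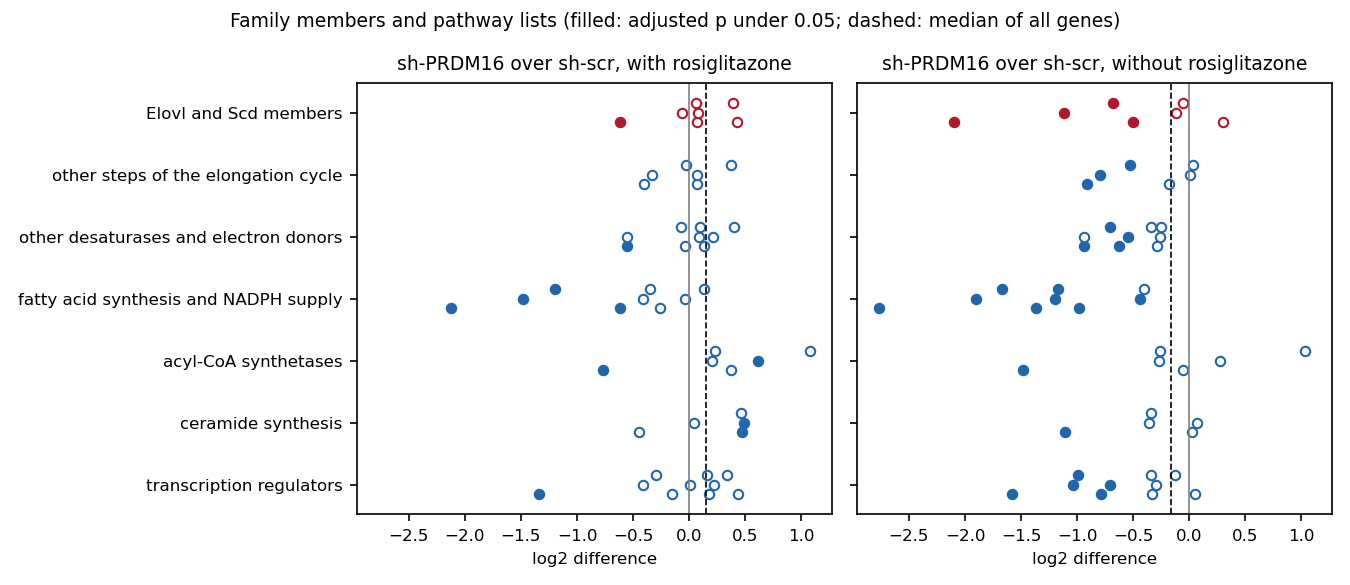
Log2 change, sh-PRDM16 over sh-scr cells, of the tested genes of the family and of each pathway list, with and without rosiglitazone. Each point is a gene, filled points passed the limma test, the dashed line is the median of all genes and the vertical spread of points within a list has no meaning. Without the drug 8 of 9 fatty acid synthesis genes and 4 of 7 family members passed as lower, and with it 4 and 1.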

How the data were processed

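The values analysed were array intensities of 22690 probe sets on 8 arrays, in 4 groups of 2 set by the sample titles. Per the labels' protocols, total RNA was extracted with Trizol, primed with oligo-dT and transcribed into biotin-labelled RNA for hybridization. The deposited intensity values are linear and run from 0.1 to 22736.2. How they were summarized, scaled or background-corrected is not given in the sources used here. The array medians differed by at most 0.38 on the log2 scale, under the limit of 0.5, so the deposited scale was kept.

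Genes were named from the platform annotation, using the 20380 probe sets with 1 gene, and each gene was read from its brightest probe set by mean intensity. The deposited intensities were transformed as log2(intensity + 16) and the dimmest 25% of genes by mean were dropped, so that 9294 of 12393 were tested. One limma model (limma 3.58.1, R 4.3.3; lmFit and eBayes) over all 8 arrays with a mean per group gave the 5 contrasts, with 4 residual and 5.31 prior degrees of freedom, two-sided tests, Benjamini-Hochberg adjustment over all genes and a threshold of 0.05. All probe sets were also fitted each on its own. The procedure was tested on simulated data for rosiglitazone in sh-scr cells alone, with 200 of 9294 genes changed in each of 5 rounds. It recovered 77.6% of changes of log2 1 and 95.2% of log2 2, and 5.06% of its calls were false. In the data 37.4% of all genes passed in that comparison, so the simulation does not cover such a broad change, nor the other contrasts. The text names the 9 members, the called members of each list with the largest changes (up to 4), and for members spanning at least 1 on the log2 scale the 3 genes with the highest Pearson r. Scd3, a further stearoyl-CoA desaturase of a list, was named after its values were seen.

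The members, the pathway lists and the marker lists were chosen with earlier results of these data known. Alternatives were median-centred and quantile-normalized arrays, no filter and a 50% filter, pseudocounts of 1 and 64, a trended prior, the mean of a gene's probe sets, the 4 arrays compared only, the replicate number as a block, and leaving out each array.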

Additional observations from a re-analysis of the deposited data

Results flagged for a closer look

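The rosiglitazone response of Elovl3 differed between sh-PRDM16 and sh-scr cells in the test of the difference itself, by log2 1.48 (limma adjusted p = 0.0331). Over 18 alternatives the difference ran from 0.88 to 1.81, and in 10 of them it no longer passed. The rise was 5.75 in sh-PRDM16 cells and 4.27 in sh-scr cells, and it was seen on both arrays of each group. The untreated levels were 39 and 46.9 in sh-PRDM16 cells and 206.2 and 269.4 in sh-scr cells, while the treated levels were 2924.7 and 3397.5 in sh-PRDM16 cells and 4861.9 and 4855.4 in sh-scr cells.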

How the results depend on the processing

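The rises of Elovl3 and Elovl4 with rosiglitazone in both sh-PRDM16 and sh-scr cells, and the lower Elovl3 and Elovl6 in sh-PRDM16 than in sh-scr cells without it, kept their direction and passed under every alternative run. Of 5 members called for rosiglitazone in sh-scr cells, 3 remained in number on median-centred arrays, 3 on quantile-normalized arrays, 3 with no filter and 3 with the replicate block, and 2 to 4 with 1 array left out. For rosiglitazone in sh-PRDM16 cells 3 were called (2 to 3 with 1 array left out) and for sh-PRDM16 against sh-scr cells without it 4 (2 to 4). Over all alternatives these counts reached 4 and 5. With rosiglitazone the 1 call became 0 with no filter and with a pseudocount of 1, 2 with a 50% filter, a trended prior or a pseudocount of 64, and 0 to 1 with 1 array left out. For the difference of the responses the 1 call became 0 on median-centred and quantile-normalized arrays, with no filter, with a pseudocount of 1 and with each probe set on its own, 4 with a 50% filter, a trended prior or a pseudocount of 64, and 0 to 2 with 1 array left out. Over all genes, median centring moved the calls to 2264 against 1245 for rosiglitazone in sh-PRDM16 cells, 2287 against 1410 for sh-PRDM16 against sh-scr cells with the drug, and 5 against 62 for the difference of the responses. The cause of these shifts was not tested. The numbers of replicates did not pair the arrays: the correlation of the replicate differences between groups ran from -0.02 to 0.05, and with the replicate block the Elovl1, Elovl6 and Elovl5 calls lost were -0.37 (adjusted p = 0.0816) and -0.48 (0.0542) for rosiglitazone in sh-scr cells and -0.50 (0.0554) for sh-PRDM16 against sh-scr cells without it.

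Signs turned only for changes that did not pass. On median-centred, then quantile-normalized arrays these were, for rosiglitazone in sh-scr cells, Scd1 (0.19, 0.06) and Scd2 (0.08, 0.02), and for rosiglitazone in sh-PRDM16 cells, on quantile-normalized arrays alone, Elovl1 (-0.07) and Elovl5 (-0.09). For sh-PRDM16 against sh-scr cells without the drug they were Elovl1 (0.13, 0.17) and Scd1 (0.06, 0), with the drug Elovl5 (-0.04, -0.04), Elovl6 (-0.05, -0.08) and Scd1 (-0.07, -0.03), and for the difference of responses Elovl4 (-0.18, -0.20) and Scd1 (-0.13, -0.03). With single probe sets, rosiglitazone in sh-scr cells gave 0.18 for Scd1, sh-PRDM16 against sh-scr cells without the drug 0.05 for Elovl1, and with it 0 for Elovl5, -0.07 for Elovl6 and -0.45 for Scd1. With the mean of a gene's probe sets Scd1 was at 0.04 for rosiglitazone in sh-scr cells and -0.19 for sh-PRDM16 against sh-scr cells with the drug, and it passed at -0.64 without the drug (adjusted p = 0.00977) and at 0.49 for rosiglitazone in sh-PRDM16 cells (0.0388). With 1 array left out, rosiglitazone in sh-PRDM16 cells gave 0 to 0.16 for Elovl1 and -0.05 to 0.13 for Elovl5, sh-PRDM16 against sh-scr cells with the drug gave -0.11 to 0.26 for Elovl6, and the difference of responses gave -0.14 to 0.39 for Elovl4. The Elovl6 difference of responses passed with a 50% filter (1.19, adjusted p = 1.45e-06), a trended prior (1.15e-05) and a pseudocount of 64 (1.04, 0.000209). Without detection calls, Elovl2 and Elovl7 have no lower limit of measurement.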
